A study of Mus musculus with 2 samples.

Results

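The Hox cluster genes are the 38 protein-coding genes of the Hoxa, Hoxb, Hoxc and Hoxd clusters described here, out of 34184 genes listed in each of 2 single-cell RNA libraries of mouse marrow. The rule that lists them uses gene symbols: 10 Hoxa, 10 Hoxb, 9 Hoxc and 9 Hoxd genes. The femur library holds marrow of the normal femur. The ectopic library holds marrow of bone that formed under the skin around a carrier of 40 mg β-TCP (beta-tricalcium phosphate) loaded with 8 µg of BMP-2, a bone-inducing growth factor, and was taken at 4 weeks. In both, blood-forming cells came from C57BL6J wild-type mice and CAR cells, the CXCL12-abundant reticular cells of the marrow stroma, from Cxcl12-GFP reporter mice after digestion with collagenase. The CAR fraction was depleted of hematopoietic and endothelial cells on magnetic columns, dead cells were gated out, cells were sorted, and both fractions were mixed before loading, so the share of each in a library was set by that mixing. The sources used here give no number, age or sex of mice.

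Hox genes encode homeodomain transcription factors. They lie in order along the chromosome, with low paralogue numbers at the 3′ end and high numbers at the 5′ end, and genes with the same number in different clusters are paralogues. In the embryo, low numbers are used in the head and anterior trunk and high numbers in the posterior trunk and the limb, and adult connective tissue and bone cells keep a Hox pattern that reflects their place in the body. In blood, Hoxa and Hoxb genes are active in stem and early progenitor cells, where Hoxa9 and Hoxb4 are known regulators of self-renewal, and they are shut down as cells mature.

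Promoter sequence is shown for 4 members that the results turn on: Hoxa9 and Hoxa10, the Hoxa genes with the largest femur counts in CAR-like cells, Hoxb4, the member with the most UMIs in blood cells, and Hoxb8, which had no femur UMI at all. Each run is the 250 bases before a RefSeq transcript start, 5′ to 3′ on the gene's strand, in build GRCm38.p6. The Hoxa9 window is chr6:52227371-52227620 on the minus strand, that of Hoxa10 is chr6:52234940-52235189 on the minus strand at the start of the shorter of the gene's spans, that of Hoxb4 is chr11:96318017-96318266 on the plus strand, and that of Hoxb8 is chr11:96281655-96281904 on the plus strand. Capitals mark matches, on either strand, to TATAAA (the TATA box), TTTATG (a core bound by Cdx factors, which act upstream of Hox genes) or TGATTNAT (the joint site of Hox and Pbx proteins).
Hoxa9: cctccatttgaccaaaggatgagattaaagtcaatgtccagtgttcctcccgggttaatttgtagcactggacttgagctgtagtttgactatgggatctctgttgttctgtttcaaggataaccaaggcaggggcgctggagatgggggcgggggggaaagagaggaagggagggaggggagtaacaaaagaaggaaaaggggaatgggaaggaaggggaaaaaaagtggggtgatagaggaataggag
Hoxa10: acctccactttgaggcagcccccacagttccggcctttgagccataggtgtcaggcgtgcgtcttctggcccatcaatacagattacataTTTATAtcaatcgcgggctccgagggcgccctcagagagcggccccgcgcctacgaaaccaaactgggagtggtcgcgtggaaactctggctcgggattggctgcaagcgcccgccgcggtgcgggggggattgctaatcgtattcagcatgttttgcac
Hoxb4: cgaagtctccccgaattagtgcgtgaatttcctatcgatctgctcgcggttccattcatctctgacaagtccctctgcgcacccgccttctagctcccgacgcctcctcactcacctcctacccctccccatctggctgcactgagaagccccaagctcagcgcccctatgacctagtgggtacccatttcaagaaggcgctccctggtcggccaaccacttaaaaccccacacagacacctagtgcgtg
Hoxb8: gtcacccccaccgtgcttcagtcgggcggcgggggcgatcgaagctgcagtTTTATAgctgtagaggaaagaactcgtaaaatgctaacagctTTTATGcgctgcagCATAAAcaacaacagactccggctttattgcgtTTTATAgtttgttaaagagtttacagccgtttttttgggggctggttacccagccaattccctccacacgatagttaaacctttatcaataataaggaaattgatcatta
The Hoxb8 window held 2 matches to TATAAA and 2 to TTTATG, the Hoxa10 window 1 match to TATAAA, and the Hoxa9 and Hoxb4 windows none of the motifs. Of the 38 genes, 22 had an entry in the promoter table, with 24 windows. TATAAA was in 16.7% of these windows against 12.4% of all 32851 windows, TTTATG in 20.8% against 10.8%, and TGATTNAT in 8.33% against 2.82%. Matches describe letters only. The Hox windows held a median of 12.5 CG dinucleotides against 6 in all windows.

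The files list 11148 femur and 7214 ectopic barcodes. Quality filters and doublet removal left 9755 cells of the femur and 6425 of the ectopic library. The libraries share 26 barcodes, and no shared barcode was CAR-like in both. Cells were clustered without any Hox gene and named from marker genes. CAR-like cells numbered 238 in the femur library (2101364 UMIs, or unique molecules) and 180 in the ectopic library (1912243 UMIs). All 10 CAR markers stood above their level over all cells in both libraries, and Cxcl12 stood at 8809 CPM (UMIs scaled to the total of the class) in the femur class and at 9606 in the ectopic one. The same markers were used to name the class, so their level is no separate check of it. Stem and progenitor-like cells numbered 65 in femur and 13 in ectopic. With 1 library per site no test between sites was possible. Ratios are ectopic over femur and carry exact 95% intervals that cover counting error only, so spread between mice is unknown. A gene with at least 50 UMIs in the 2 libraries together is called measured. If its ratio is 1.5-fold or more in either direction it is called higher or lower, which is a rule of size and no test. UMIs come from transcript ends, so CPM was not divided by gene length.

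CAR-like cells of both sites held Hox transcripts at nearly the same summed level, but the Hoxa, Hoxb and Hoxd parts of it differed. Together the 38 genes had a level of 512 CPM in the femur cells against 485 CPM in the ectopic ones (ratio 0.95, 0.87 to 1.03). The Hoxa sum was 309 CPM in femur against 93.1 CPM in ectopic (ratio 0.30, 0.25 to 0.36), while the Hoxb sum was 29.0 against 159 CPM (5.49, 4.16 to 7.36). The Hoxc sum was 164 against 200 CPM (ratio 1.22, 1.05 to 1.42), and the Hoxd sum was 10.5 against 32.4 CPM (3.10, 1.88 to 5.29). Intervals of the Hoxa, Hoxb and Hoxd sums lay wholly beyond 1.5-fold, and that of the Hoxc sum did not.

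Of the 38 genes, 16 were measured in CAR-like cells: 6 were higher in ectopic cells, 6 lower and 4 in between. Over all 8818 genes measured in these cells, 11.4% were higher and 10.4% lower by the same rule. Among the 7243 genes of 50 to 500 UMIs, the range that holds every measured Hox gene, the shares were 11.5% and 10.1%. Higher were Hoxb2, Hoxb3, Hoxb4, Hoxb6, Hoxc8 and Hoxd8. Lower were Hoxa3, Hoxa5, Hoxa7, Hoxa9, Hoxa10 and Hoxc10. All 5 measured Hoxa genes were lower (median log2 ratio -1.71) and all 4 measured Hoxb genes higher (median 1.99). The 6 measured Hoxc genes split into 1 higher, 1 lower and 4 in between (median 0.16), and the only measured Hoxd gene, Hoxd8, had a log2 ratio of 1.35. The median over all measured genes was 0.03. At 2-fold, 6 Hox genes were higher and 5 lower, where 3.63% and 4.47% of all genes were. With genes counted from 20 UMIs, 8 of 19 were higher and 7 lower, where 13.5% and 13.4% of 11433 genes were.

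**Figure D1:**
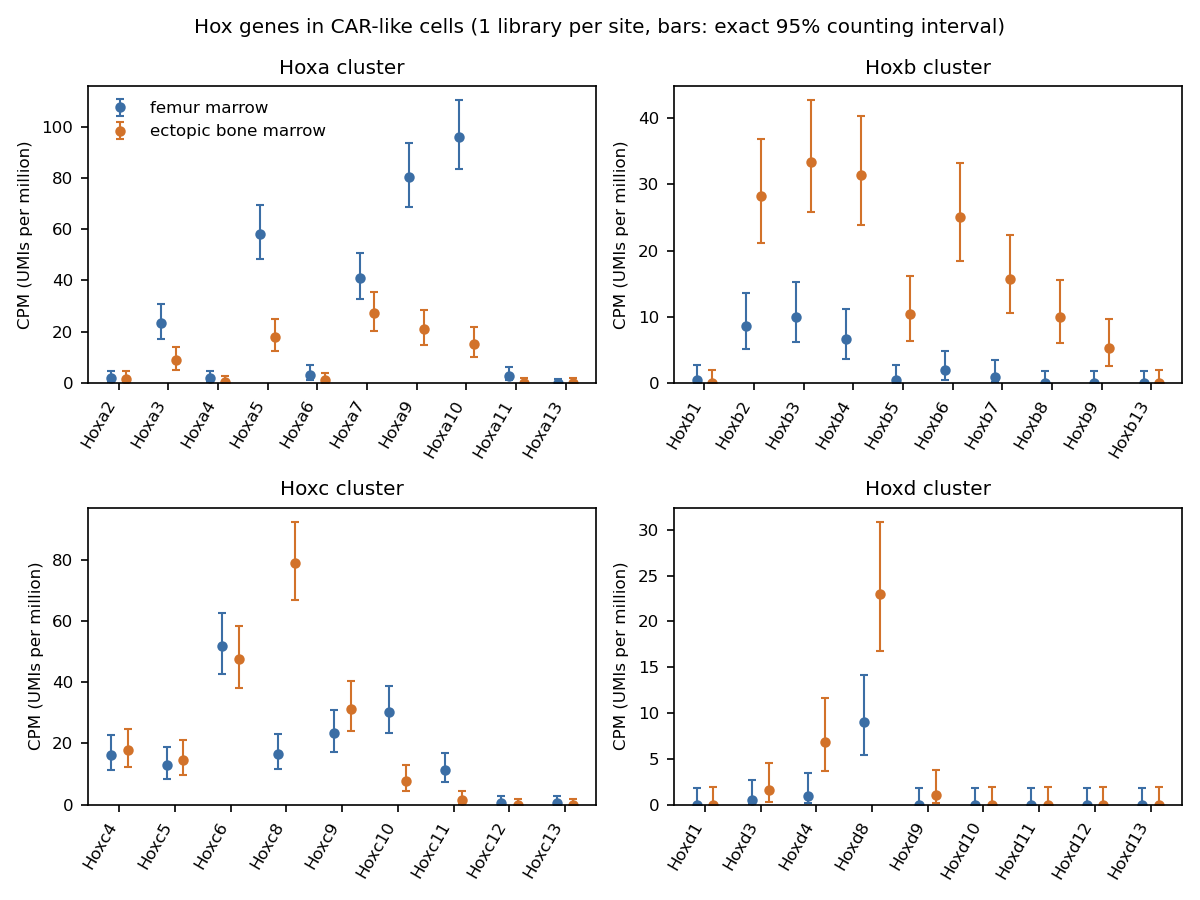
Level of each of the 38 Hox genes in CAR-like cells of the femur (blue) and ectopic (orange) library, in CPM (vertical axis), by cluster and in order of paralogue number (horizontal axis). Bars are exact 95% counting intervals. Femur points lead in the Hoxa panel, with Hoxa10 at 96.1 against 15.2 CPM, and ectopic points lead in the Hoxb panel.

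Among Hoxa genes, those of posterior type showed the widest gap. Hoxa10, which takes part in patterning the lumbar spine and the upper hindlimb, had 202 femur and 29 ectopic UMIs, that is levels of 96.1 and 15.2 CPM (ratio 0.16, 0.10 to 0.23). Hoxa9, its neighbour in the cluster, had 169 and 40 UMIs, or 80.4 and 20.9 CPM (ratio 0.26, 0.18 to 0.37). Both genes were spread over many femur cells, with a Hoxa10 UMI in 113 of 238 femur and 20 of 180 ectopic cells and a Hoxa9 UMI in 92 and 24.
Hoxa11, a gene of the middle limb segment, had 6 femur UMIs and no ectopic UMI, at least 1.82-fold lower by a floor of 3 UMIs per library. Hoxa13, the gene of the distal limb, had no UMI in either library, and that floor is 1.43 CPM for femur cells and 1.57 CPM for ectopic ones.

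The more anterior Hoxa genes differed in the same direction and by less. Hoxa5, which acts in the lower neck and upper trunk, had 122 femur and 34 ectopic UMIs, or 58.1 and 17.8 CPM (ratio 0.31, 0.20 to 0.45). Hoxa3 had 49 and 17 UMIs, or 23.3 and 8.89 CPM (0.38, 0.21 to 0.67). Hoxa7 had 86 and 52 UMIs, or 40.9 and 27.2 CPM (0.66, 0.46 to 0.95), and lay at the border of the size rule: as a mean of per-cell CPM its log2 ratio was -0.18, in cells with no Ptprc UMI it was -0.43, and without doublet removal -0.55. Hoxa2, Hoxa4 and Hoxa6 had 9 UMIs or fewer each. Summed, Hoxa genes of groups 1 to 8 had a ratio of 0.44 (0.35 to 0.55) and those of groups 9 to 13 one of 0.20 (0.15 to 0.26), and these 2 intervals did not overlap.

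Hoxb genes were sparse in femur CAR-like cells and detected as a run of neighbours, from Hoxb2 to Hoxb9, in ectopic cells. Hoxb6, a gene of the thoracic region, had 4 femur and 48 ectopic UMIs, or 1.90 and 25.1 CPM (ratio 13.2, 4.83 to 50.4). Hoxb4, known from blood stem cell expansion, had 14 and 60 UMIs, or 6.66 and 31.4 CPM (4.71, 2.60 to 9.13). Hoxb3 stood at 9.99 and 33.5 CPM (21 and 64 UMIs, ratio 3.35, 2.02 to 5.77), and Hoxb2, a hindbrain gene in the embryo, at 8.57 and 28.2 CPM (18 and 54 UMIs, ratio 3.30, 1.90 to 5.97). In all 4 the femur and ectopic intervals of the level did not overlap.

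Further along the Hoxb cluster the femur counts were near or at 0. Hoxb5 had 1 femur and 20 ectopic UMIs (ratio 22.0, 3.52 to 911), Hoxb7 had 2 and 30 (16.5, 4.18 to 142), and both were below the measured minimum. Hoxb8, whose promoter window is printed above, had 0 and 19 UMIs (at least 6.96-fold higher), and Hoxb9 had 0 and 10 (at least 3.66-fold higher).
Few cells carried some of these counts: the 5 ectopic cells with most UMIs of the gene held 90.0% of the Hoxb9 UMIs, 55.0% of the Hoxb5 UMIs and 40.0% of the Hoxb7 UMIs, against 29.2% for Hoxb6. Without those 5 cells of each library the log2 ratio of Hoxb5 went from 4.46 to 1.76. After cells were thinned to 3000 UMIs, the log2 ratio of Hoxb7 was -0.54, with a UMI in 2 femur and 1 ectopic cells. Hoxb8, Hoxb9, Hoxa11 and Hoxd4, with fewer than 20 UMIs each, are described because of their values. Hoxb1, the most anterior Hoxb gene, had 1 UMI in femur CAR-like cells, and Hoxb13, the most posterior, had none at either site.

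**Figure D2:**
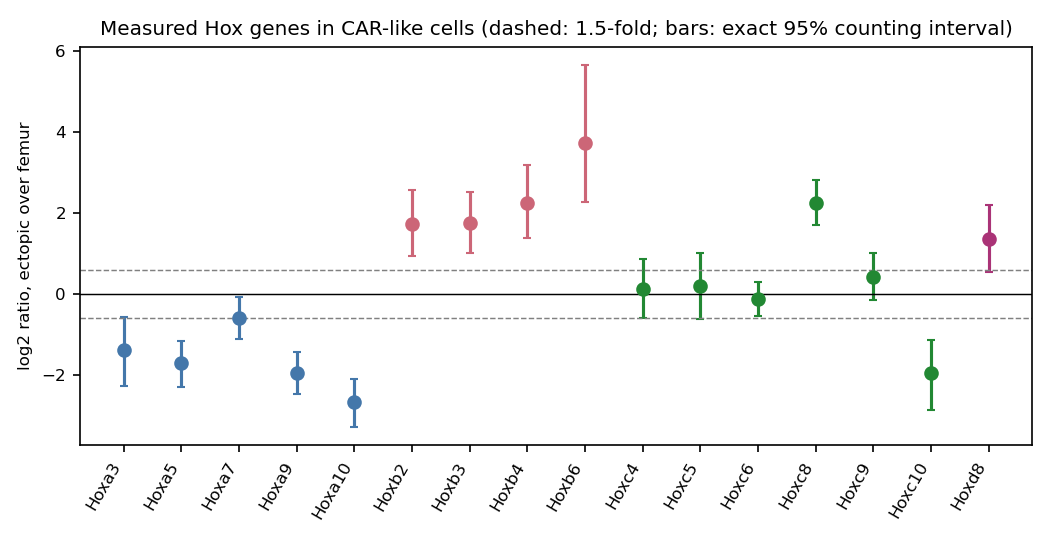
Log2 ratio of the CPM in ectopic over femur CAR-like cells (vertical axis) for the 16 measured Hox genes, coloured by cluster. Bars are exact 95% counting intervals and dashed lines mark 1.5-fold. The 5 Hoxa genes lie below the lower line, the 4 Hoxb genes above the upper line, and Hoxc8 and Hoxc10 on opposite sides.

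The Hoxc cluster was used at both sites, with a break along its order. Hoxc4 (34 UMIs in each library, ratio 1.10, 0.66 to 1.82), Hoxc5 (27 and 28 UMIs, 1.14, 0.65 to 2.01) and Hoxc6 (109 and 91 UMIs, 51.9 and 47.6 CPM, 0.92, 0.69 to 1.22) stayed within 1.5-fold. Hoxc8, a gene of the thoracic spine, had 35 femur and 151 ectopic UMIs, or 16.7 and 79.0 CPM (ratio 4.74, 3.26 to 7.06), and it had the highest CPM of the 38 genes in ectopic CAR-like cells. A single ectopic cell held 14 of its UMIs, and without the 5 richest cells of each library it was still past 1.5-fold.
Hoxc9 had 49 and 60 UMIs (ratio 1.35, 0.91 to 2.0, log2 ratio 0.43). Over the settings tried its log2 ratio ran from -0.68, with cells thinned to 3000 UMIs, to 1.21. After thinning, a Hoxc9 UMI was in 10 femur and 5 ectopic cells. Hoxc10, a paralogue of Hoxa10, had 64 and 15 UMIs, or 30.5 and 7.84 CPM (0.26, 0.14 to 0.46), and Hoxc11 had 24 and 3 (0.14, 0.03 to 0.45), below the measured minimum. Hoxc12 and Hoxc13 had 1 femur UMI each and no ectopic UMI. Summed, Hoxc genes of groups 1 to 8 had a ratio of 1.63 (1.36 to 1.96) and those of groups 9 to 13 one of 0.62 (0.46 to 0.82). Hoxc8 alone gave 35 femur and 151 ectopic UMIs of the former sum, and its other genes, Hoxc4, Hoxc5 and Hoxc6, each lay within 1.5-fold.

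Hoxd genes were the sparsest. Hoxd8 had 19 femur and 44 ectopic UMIs, or 9.04 and 23.0 CPM (ratio 2.54, 1.45 to 4.61), and Hoxd4 had 2 and 13 UMIs (7.14, 1.62 to 65.2). Hoxd3 had 1 and 3 UMIs and Hoxd9 had 0 and 2. Hoxd1, Hoxd10, Hoxd11, Hoxd12 and Hoxd13 had no UMI in CAR-like cells, so the late Hoxd genes of the distal limb were not detectable at this depth at either site. In all, 7 of the 38 genes had no UMI in CAR-like cells and 12 had 1 to 19.

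By paralogue group, the summed level peaked at different places. In femur CAR-like cells group 10 was highest at 127 CPM, followed by group 9 at 104 CPM. In ectopic cells group 8 was highest at 112 CPM, against 25.7 CPM in femur (ratio 4.35, 3.22 to 5.98). Groups 9, 10 and 11 had ratios of 0.56 (0.44 to 0.71), 0.18 (0.13 to 0.25) and 0.11 (0.02 to 0.35), in which 3 ectopic UMIs stand behind group 11. Groups 2 and 4 were higher in ectopic cells, at 2.85 (1.71 to 4.89) and 2.20 (1.57 to 3.11). Groups 3, 6 and 7 had ratios of 1.30, 1.29 and 1.02, and group 5, which Hoxa5 dominates in femur, one of 0.60 (0.45 to 0.79). The intervals of groups 3 and 7 include 1. In group 3, Hoxa3 was lower and Hoxb3 higher. In group 9, Hoxa9 was lower (0.26) while Hoxc9 (1.35) lay within 1.5-fold, though not in every setting tried. Hoxb9 (0 femur and 10 ectopic UMIs) and Hoxd9 (0 and 2) had ectopic UMIs only. Hoxc8 made up most of the ectopic group 8 level, at 79.0 CPM.

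**Figure D3:**
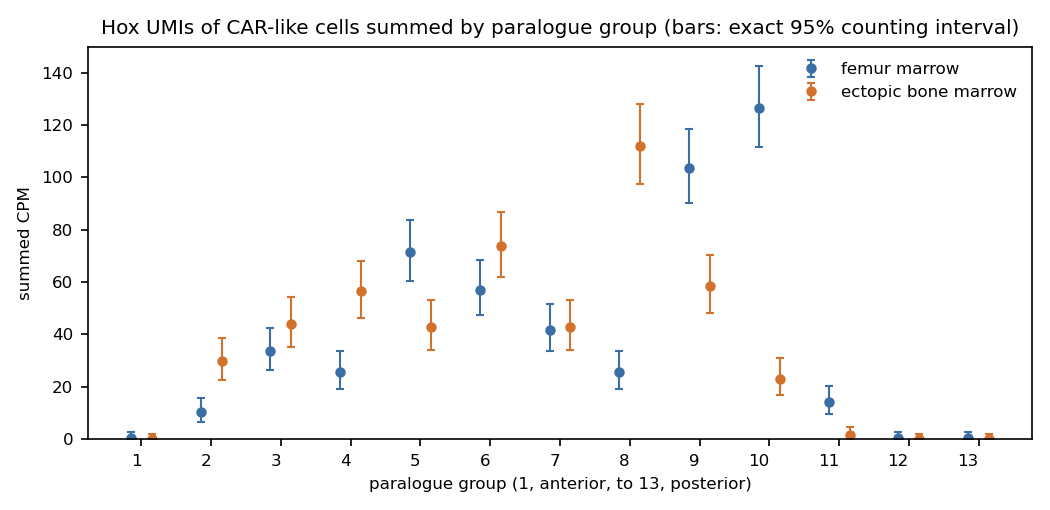
Summed CPM of all Hox genes of a paralogue group (vertical axis) in CAR-like cells, for groups 1 to 13 (horizontal axis), femur in blue and ectopic in orange, with exact 95% counting intervals. The femur profile peaks at group 10 (127 CPM) and the ectopic profile at group 8 (112 CPM).

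In the same cells and counts, the difference was also seen cell by cell at equal depth. UMIs were drawn at random down to 3000 in every CAR-like cell, and cells with fewer, 58 in femur and 49 in ectopic, were left out, leaving 180 and 131. A Hoxa UMI was then found in 61.7% of femur cells (exact binomial interval 54.1% to 68.8%) and 19.1% of ectopic cells (12.7% to 26.9%). For Hoxb the shares were 7.22% (3.90% to 12%) and 41.2% (32.7% to 50.2%), for Hoxc 36.1% and 41.2%, and for Hoxd 3.89% and 8.40%. Any Hox UMI was found in 76.7% and 74.0% of cells, with a median of 1 Hox gene per cell at both sites. B lineage-like cells, given for comparison, had any Hox UMI in 3.24% of femur and 2.55% of ectopic cells at the same depth, a Hoxa UMI in 1.01% and 0.63%, and a Hoxb UMI in 2.31% and 1.83%. Hoxb4 alone was in 1.11% of femur CAR-like cells, no higher than its 1.70% in femur B lineage-like cells, in which free RNA and the cells' own Hoxb4 RNA were not separated, and in 12.98% of ectopic CAR-like cells against 1.54%. Before thinning, a Hoxb4 UMI was in 11 and 46 CAR-like cells. Before thinning, median depths were 9046 and 10436 UMIs in CAR-like and 5891 and 6401 in B lineage-like cells. Among the 180 femur and 131 ectopic thinned CAR-like cells, those with a Hoxa UMI and none of Hoxb or Hoxc made up 36.1% and 6.87%. Those with a Hoxb or Hoxc UMI and none of Hoxa made up 13.9% and 53.4%.

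**Figure D4:**
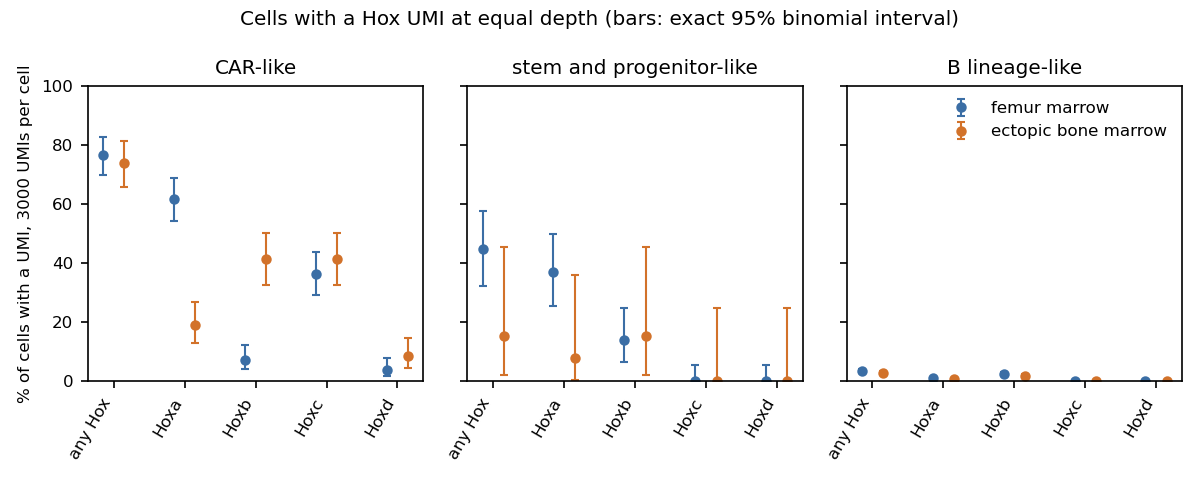
Percent of cells with at least 1 UMI of any Hox gene or of a Hox cluster (vertical axis) after thinning each cell to 3000 UMIs, in CAR-like, stem and progenitor-like and B lineage-like cells of the femur (blue) and ectopic (orange) library, with exact 95% binomial intervals. In CAR-like cells the Hoxa share is 61.7% against 19.1% and the Hoxb share 7.22% against 41.2%.

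Other features of the CAR-like cells differed between the sites along with the Hox genes. The 10 CAR markers summed to 25274 and 24363 CPM but did not all keep their level: Lepr stood at 3133 and 1406 CPM, Ebf3 at 3543 and 2168, Foxc1 at 497 and 254, Pdgfrb at 845 and 416, and Lpl at 1506 and 3469. The summed level of 8 osteoblast markers was 5703 CPM in femur and 1736 CPM in ectopic cells. In both, 7 of 8 were detected and Dmp1 was at 0. Most of the sum was Ibsp, a bone matrix gene (5306 and 954 CPM), and Phex was lower in ectopic cells too (163 and 27.2 CPM). The other detected markers were higher there: Col1a1 at 122 and 595 CPM, Sp7 at 19.0 and 32.4 and Alpl at 92.3 and 105. Bglap was at 0.48 and 8.89 CPM and Bglap2 at 0.48 and 13.6, on 1 femur UMI each. The 7 fibroblast markers summed to 491 and 1194 CPM. Of these, Dpt and Mfap5 were at 0 in femur and had 9 and 64 ectopic UMIs. Most of the sum was Col3a1 (161 and 683 CPM) and Dcn (280 and 395 CPM). Lum (43.8 and 66.9 CPM) and Clec3b (2 and 11 UMIs) were higher in ectopic cells too, and Pi16 stood at 5.23 CPM in both.
Within cells that had an Ibsp UMI (217 femur and 60 ectopic), the Hoxa ratio was 0.32 (0.25 to 0.41) and the Hoxb ratio 6.74 (4.89 to 9.41). Within cells with no Ibsp UMI (21 and 120), the Hoxa ratio was 0.29 (0.19 to 0.47), and the Hoxb ratio was 1.70 (0.81 to 4.29) on 7 femur UMIs, which includes 1. The log2 ratio in these cells was 1.11 for Hoxa7, -0.094 for Hoxb3 and -0.13 for Hoxb4, each on the other side of 0 than in the whole class. These divisions of the class were chosen after seeing the data, and the part of Ibsp in the Hox values was not tested beyond them. In cells with no UMI of Dpt, Pi16, Clec3b or Mfap5 (230 and 142), the ratios were 0.28 (0.23 to 0.35) and 5.23 (3.92 to 7.07). The 6 endothelial markers summed to 69.5 and 86.3 CPM, of which Pecam1 was 65.2 and 82.6 CPM, while Cdh5, Kdr, Emcn, Tek and Stab2 had 5 UMIs or fewer each, with Cdh5 at 0 in femur and Kdr at 0 in both. Neutrophil markers summed to 4973 and 6607 CPM in CAR-like cells and B lineage markers to 4474 and 4811 CPM. Of the latter, Ebf1, which CAR cells also express, made up 4361 and 4764 CPM, and no other B lineage marker was above 32.4 CPM in femur or 8.37 CPM in ectopic cells. Their part in the Hox values was not tested.
A low-UMI cluster led by Cxcl9 made up 48 femur and 55 ectopic CAR-like cells, with 3.44% and 6.35% of the class UMIs. In the remaining 190 and 125 cells the Hoxa ratio was 0.31 and the Hoxb ratio 5.50. In a sum over cells, fewer cells with a transcript and less transcript per cell cannot be told apart.

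Stem and progenitor-like cells carried Hoxa and Hoxb genes but no Hoxc or Hoxd UMI. These cells had a summed Hox level of 243 CPM in femur (exact Poisson interval 218 to 269) and 149 CPM in ectopic (116 to 188), a ratio of 0.61 (0.47 to 0.79). All 12 stem and progenitor markers were detected in femur and 11 in ectopic cells, where Procr was at 0, and their sum was 6430 and 3835 CPM, with Mecom at 897 and 417 CPM, Hlf at 617 and 274 and Ifitm1 at 378 and 97.9. The 5 megakaryocyte markers summed to 310 and 1442 CPM in the same cells, mostly Pf4 at 171 and 1255 CPM. The part of these markers in the Hox values was not tested. The ectopic value rests on 13 cells and 70 Hox UMIs, and their median depth was 31173 UMIs against 20441 in femur. When each library was clustered alone, the ectopic class held 34 cells and stood at 83.9 CPM.

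Hoxa9 led in stem and progenitor-like cells, with 144 femur and 26 ectopic UMIs, or 97.5 and 55.3 CPM (ratio 0.57, 0.36 to 0.87). A single ectopic cell held 12 of the 26 UMIs and 5 cells held 92.3% of them, so the ectopic level rests on few cells. Hoxa5 had 43 and 7 UMIs (0.51, 0.19 to 1.15) and Hoxa7 had 50 and 19, or 33.8 and 40.4 CPM (1.19, 0.66 to 2.06). By the size rule 2 of the 3 measured genes were lower and none higher, where 18.0% of all 6525 genes measured in these cells were lower and 10.7% higher. Hoxb4 stood at 23.0 and 17.0 CPM (34 and 8 UMIs, ratio 0.74, 0.30 to 1.63) and Hoxb3 at 20.98 and 4.25 CPM (31 and 2 UMIs, 0.20, 0.02 to 0.80). Hoxa10, the top Hox gene of femur CAR-like cells, had 20 and 4 UMIs here. The Hoxb sum was 56.9 CPM in femur and 23.4 in ectopic (ratio 0.41, 0.20 to 0.78), the opposite direction to CAR-like cells, on 84 and 11 UMIs and beside the marker differences of this class given above.

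CAR-like cells held 32.6% of all Hox UMIs of the femur library and 44.3% of the ectopic library, with 2.07% and 2.53% of all UMIs. Nearly all Hoxc and Hoxd UMIs were in CAR-like cells, while Hoxa and Hoxb genes varied from gene to gene. No Hoxd UMI was found outside CAR-like cells, and 9 femur and 20 ectopic Hoxc UMIs were. With both libraries pooled, CAR-like cells held 87.2% of the Hoxa10 and 98.5% of the Hoxc6 UMIs, but 36.6% of Hoxa9 and 22.3% of Hoxa7. The pooled shares of Hoxb6, Hoxb3 and Hoxb4 were 81.2%, 14.1% and 4.51%, and these differed by site. For Hoxb6 the share was 30.8% in femur (4 of 13 UMIs) and 94.1% in ectopic (48 of 51). It was 5.92% and 25.7% for Hoxb3, and 1.52% and 8.38% for Hoxb4.

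Plasmacytoid dendritic-like cells were the mature blood class with the highest summed Hox level, 103 CPM in femur and 80.8 CPM in ectopic cells (ratio 0.78, 0.63 to 0.97). Hoxa7 made the largest contribution, with 173 and 58 UMIs, or 45.6 and 41.8 CPM (ratio 0.92, 0.67 to 1.24). Hoxa5 stood at 18.2 and 11.5 CPM (ratio 0.63, 0.34 to 1.11) and Hoxa9 at 15.3 and 10.1 CPM (0.66, 0.34 to 1.20). Both were lower by the size rule, which 4.65% of the 8695 genes measured in this class met (3.81% were higher), but neither interval excluded 1. In conventional dendritic-like cells Hoxa7 was at 12.1 and 6.89 CPM on 13 UMIs in each library (ratio 0.57, 0.24 to 1.33), below the measured minimum.

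Hoxb4 and Hoxb3 were found at a low level across the myeloid classes. In neutrophil-like cells Hoxb4 stood at 10.4 and 10.7 CPM (429 and 300 UMIs, ratio 1.03, 0.88 to 1.19) and Hoxb3 at 4.50 and 4.45 CPM (186 and 125 UMIs, 0.99, 0.78 to 1.25). Hoxb4 here had the most UMIs of any Hox gene in any class. Both lay within 1.5-fold, in a class where 2.63% of 11757 genes were lower and 2.54% higher. In monocyte-like cells Hoxb4 was at 12.4 and 13.3 CPM (1.07, 0.86 to 1.34), while Hoxb3 was at 3.53 and 2.02 CPM (0.57, 0.34 to 0.95), in a class where 2.96% of 11222 genes were lower and 2.75% higher. Hoxb4 had 118 and 92 UMIs in B lineage-like cells (0.97, 0.73 to 1.28), so it was higher in ectopic cells by the size rule in the CAR-like class but within 1.5-fold in the 3 largest blood classes. Whether the classes differ was not tested. Hoxb1 was found mostly in neutrophil-like cells, which held 18 of 21 UMIs in the femur library and 13 of 13 in the other.

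Myeloid progenitor-like cells had 38.7 and 27.3 CPM of Hox transcripts in all, with Hoxa9 at 9.62 and 7.29 CPM, Hoxa7 at 9.40 and 6.84 CPM and Hoxb4 at 12.8 and 8.66 CPM, all within 1.5-fold, where 4.85% of 8803 genes were lower and 2.12% higher. The lowest summed levels of the named blood classes were those of erythroid-like (6.36 and 5.27 CPM) and T-like cells (4.48 and 6.26 CPM). Among B lineage-like cells the cluster led by Vpreb1, a gene of early B cell stages, held 30 of 52 femur and 10 of 19 ectopic Hoxa7 UMIs. Over the whole B lineage Hoxa7 had a ratio of 0.45 (0.25 to 0.78), lower by the size rule. By that rule 7.74% of 12500 genes were lower and 5.53% higher. That Vpreb1-led cluster made up 250 of 2637 femur and 98 of 2162 ectopic cells. Its part in the Hoxa7 ratio was not tested.

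**Figure D5:**
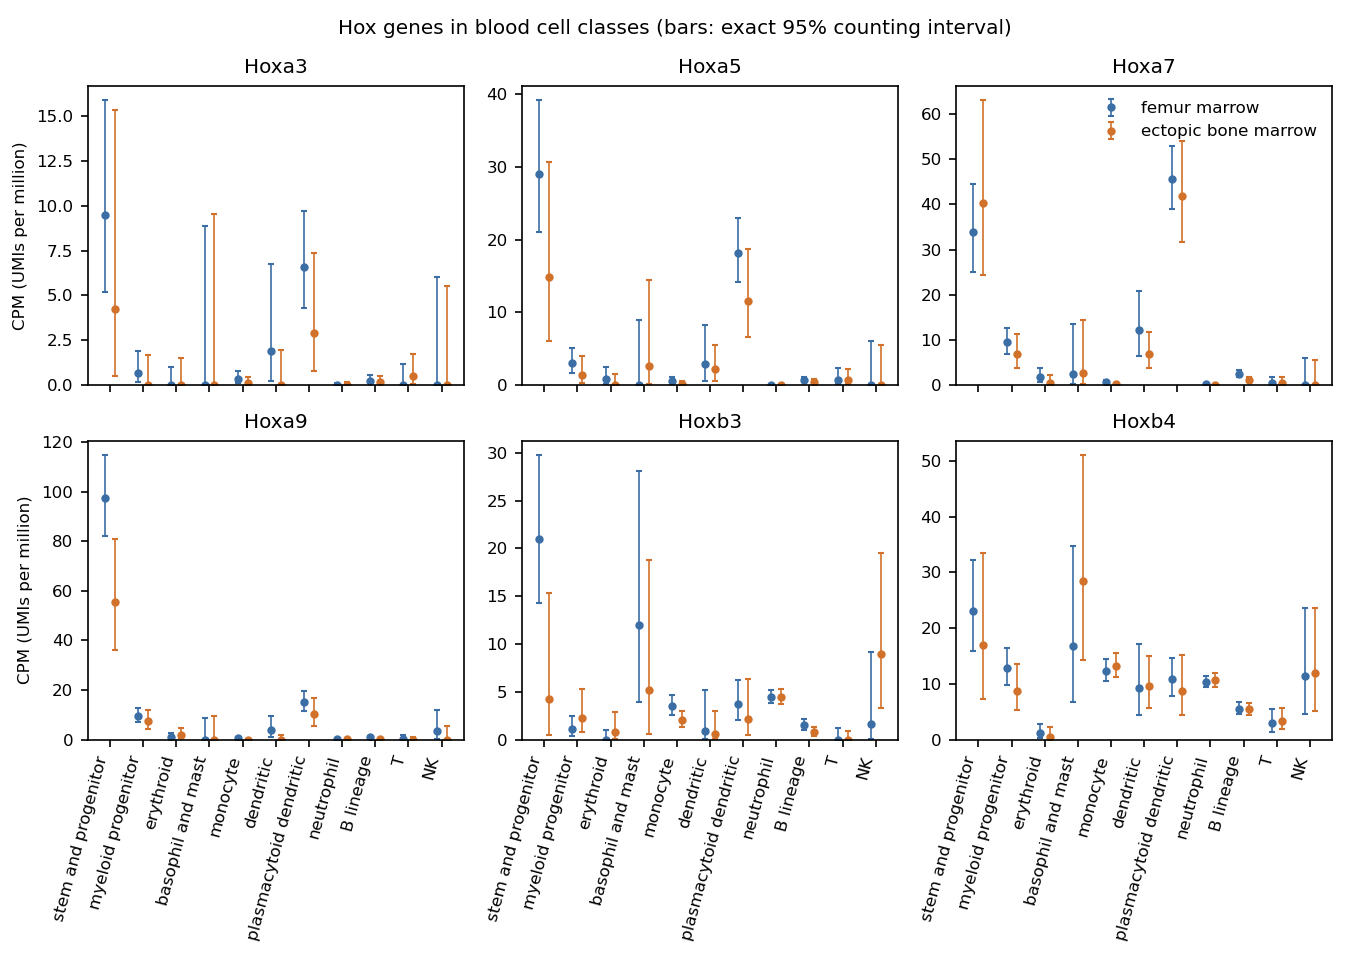
CPM (vertical axis, own scale per panel) of the 6 Hox genes with at least 50 UMIs outside CAR-like cells, in 11 blood cell classes (horizontal axis) of the femur (blue) and ectopic (orange) library, with exact 95% counting intervals. Hoxa genes stand out in stem and progenitor-like and plasmacytoid dendritic-like cells, with Hoxa9 at 97.5 and 55.3 CPM in the former, while Hoxb4 is spread over most classes.

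Of 9 genes for cofactors of Hox proteins, 8 were measured in CAR-like cells and all 8 lay within 1.5-fold (median log2 ratio 0.08), in cells where 11.4% of all measured genes were higher and 10.4% lower, so most genes lay there too. Meis1, whose protein binds DNA together with Hox proteins, stood at 130 and 123 CPM (ratio 0.95, 0.79 to 1.13) and Meis2 at 296 and 340 CPM (1.15, 1.03 to 1.29). The highest ratios were those of Meis3 (1.38, 0.84 to 2.29) and Meis2. In stem and progenitor-like cells, where Hoxa9 is known to act with Meis1, Meis1 was at 1126 and 910 CPM (0.81, 0.73 to 0.90), while Meis2 had 1 UMI. Of 6 measured there, Pbx4 (0.35, 0.14 to 0.78) and Pknox1 (0.51, 0.21 to 1.09) were lower and Pbx2 (1.26) was highest.

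Of 21 chromatin regulators of the Polycomb and Trithorax type, which keep Hox genes silent or active, 19 were measured in CAR-like cells, with 1 higher, 3 lower and 15 in between (median log2 ratio -0.21 against 0.03 over all genes). Over all measured genes 11.4% were higher and 10.4% lower. Ezh1, a Polycomb methyltransferase, stood at 67.6 and 27.7 CPM (ratio 0.41, 0.29 to 0.57) and Suz12, named after its value was seen, at 104 and 61.7 CPM (0.59, 0.47 to 0.74). Pcgf2 (19.0 and 29.3 CPM, 1.54, 1.01 to 2.37) had the highest ratio, followed by Dot1l (1.28, 0.83 to 1.97). In stem and progenitor-like cells 14 were measured, 1 higher and 5 lower, where 10.7% and 18.0% of all genes were. Suz12 had a ratio of 1.60 (1.23 to 2.06) and Psip1 one of 1.26, and the lowest were Ezh1 (0.37, 0.14 to 0.82) and Phc2 (0.46, 0.27 to 0.76).

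Of 11 noncoding genes of the clusters, 10 were listed and 1 was measured in CAR-like cells. Hotairm1, at the 3′ end of the Hoxa cluster, stood at 21.9 and 18.8 CPM (ratio 0.86, 0.54 to 1.36). Below the measured minimum, Hoxaas3 had 30 and 10 UMIs and Hoxd3os1 had 4 and 34. Both were chosen for mention after their values were seen.
Of 10 upstream factors, 3 were measured. Rarb, a retinoic acid receptor, stood at 36.6 and 6.28 CPM (ratio 0.17, 0.08 to 0.32), Rarg at 63.3 and 45.5 CPM (0.72, 0.54 to 0.95) and Rara at 39.0 and 29.3 CPM (0.75, 0.52 to 1.07). Cdx1, Cdx2 and Cdx4 had no UMI. In stem and progenitor-like cells only Gmnn, the replication inhibitor geminin, was measured (49.4 and 128 CPM, 2.58, 1.80 to 3.69).

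Some members share sequence with neighbours, so their counts are uncertain. In the GENCODE M21 annotation, Hoxc5 and Hoxc10 share exon sequence on the same strand, as do Hoxd3 and Hoxd4. The annotated span of Hoxa3 also runs over Hoxa4, Hoxa5 and Hoxa6, and that of Hoxc5 over Hoxc6, Hoxc8, Hoxc9 and Hoxc10, so reads counted in introns could be split between them. The annotation behind the counts, and whether introns were counted, are not given in the sources used here.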

How the data were processed

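Matrices of raw UMI counts, 1 femur and 1 ectopic library, were used as deposited. The file headers name Cell Ranger 7.0.1 as their source, made from Chromium 3ʹ v3.1 libraries per the labels' protocols, on GRCm39 per the submitters' processing notes. The femur library held 123009924 UMIs and the ectopic library 86018367. Cells were kept with at least 500 UMIs, 300 genes and at most 10% mitochondrial UMIs. Doublets were scored with Scrublet in scanpy 1.11.5 and the highest-scoring cells removed at 0.8% per 1000 cells (910 femur, 369 ectopic). Log values of counts per 10000 in each cell were used. From 2000 variable genes without Hox, Xist, Y-linked, mitochondrial and ribosomal genes, 30 principal components and a graph of 15 neighbours (scikit-learn 1.9.0) gave Leiden clusters at resolution 1 (igraph 0.11.9).

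The naming rule was set after clusters were seen. A candidate type needed 3 markers at least 2-fold above other cells, and the candidate with the largest number of its markers in the top 10 genes by fold (from 100 UMIs, 10 CPM added) was taken, ties going to the higher mean marker fold. Clusters with a median depth under 0.333 of their library's needed a marker among those 10. Named clusters of at least 50 cells, other than CAR-like ones, with 2 or more markers of another type among the 10 were split once. Class names mean cells like that type.

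UMIs were summed per class and library and scaled to CPM. Ratios have exact conditional binomial 95% intervals, levels exact Poisson and shares exact Clopper-Pearson intervals, for counting error only. Where a library had no UMI, 3 UMIs were put in its place, which makes the fold a bound. The ratio calculation was tested on simulated data. Every Hox gene with at least 20 UMIs in CAR-like or stem and progenitor-like cells is given its values. Of the cofactor, chromatin, noncoding and upstream lists, up to the 2 highest and 2 lowest measured ratios are named, with Meis1 and Meis2 in any case. The members and lists were chosen with earlier results of these data known. A further Hox gene of the clusters, and the values of some genes of the lists, are not reported here. Gene names are those of the files. Promoter windows are from RefSeq in GRCm38.p6, and no coordinate was carried between builds. With 1 library per site no test was possible. Subsets by Ibsp and by fibroblast markers were chosen after seeing the data. Other alternatives changed the cell filters, clustering, scaling, depth and cells used. Tables were handled with pandas 2.3.3 and intervals computed with scipy 1.17.1 in Python 3.11.15. TMM factors came from edgeR 4.0.16 in R 4.3.3, which ran no test.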

Additional observations from a re-analysis of the deposited data

Results flagged for a closer look

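The summed Hoxb genes went opposite ways at the 2 sites in 2 cell classes. In CAR-like cells the ectopic over femur ratio was 5.49 (4.16 to 7.36, 61 and 305 UMIs), and in stem and progenitor-like cells it was 0.41 (0.20 to 0.78, 84 and 11 UMIs), a gap of 3.74 in log2 ratio. The difference between the classes was not tested, since each site has 1 library, and the ectopic stem and progenitor-like value comes from 13 cells. In that class Mecom stood at 897 CPM in femur and 417 in ectopic cells, Hlf at 617 and 274, and the megakaryocyte gene Pf4 at 171 and 1255, and their part in the difference was not tested.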

How the results depend on the processing

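No paired analysis was possible because each site has 1 library and no test was made. Over the settings tried, other than those on Ibsp and fibroblast markers, the count of higher Hox genes in CAR-like cells was between 6 and 8 and that of lower genes between 5 and 7. Of the 12 genes called, 11 were past 1.5-fold in the same direction in each of those settings that keep the 1.5-fold rule, the exception being Hoxa7. The median log2 ratio of Hoxb genes was 2.98 with genes counted from 20 UMIs. Thinned to 3000 UMIs, Hoxb7 went to -0.54 and Hoxc9 to -0.68 in log2 ratio.

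Settings on Ibsp and fibroblast markers were added after seeing the data. In cells with no Ibsp UMI (21 in femur, with 7 Hoxb UMIs) the medians were -1.13 for Hoxa, -0.094 for Hoxb and 0.11 for Hoxd, and single genes went to 1.11 for Hoxa7, -0.094 for Hoxb3 and -0.13 for Hoxb4. With these settings included, 7 of the 12 genes stayed past 1.5-fold in the same direction and 8 kept their sign: Hoxd8 (0.11) lost its call too, and Hoxb6 had no value in cells with no Ibsp UMI. The summed stem and progenitor-like level was 207 CPM in femur without doublet removal and 210.5 CPM with Hox genes among the variable genes. In ectopic cells it was 83.9 CPM with each library clustered alone and 103 CPM after thinning, on 4 UMIs. At Leiden resolution 0.5 no stem and progenitor-like class formed, so there is no value. Depth limits genes under 50 UMIs, and the cause of each shift was not tested.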
